A study of Mus musculus with 4 samples.

Results

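The protein-coding genes of the 1q21 block are a stretch of neighbouring genes on the long arm of chromosome 1, next to the centromere, measured in Jurkat, an established line from a human T cell leukaemia. They were chosen by position, as rows of the deposited gene count table on chromosome 1 with a start between 145100000 and 151330000, a protein-coding biotype and at least 15 reads summed over the 4 libraries. MCL1, CTSS, ITGA10 and the genes whose names begin with HIST were left out. This gave 69 genes of the 58735 rows of the table, and of the 98 protein-coding rows of the interval. The block was chosen from the comparison of the libraries labelled knockout with the wild-type libraries, and the read minimum uses the same 4 columns. All differences between these groups are therefore given as a description, without a test of the members. Just inside the minimum were NOTCH2NLA with 33 reads and PDZK1 with 35, and just outside it NUDT4B with 13 reads and CIART with 6.

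The study compared Jurkat T cells labelled Matr3 knock out, by CRISPR-Cas9, with Jurkat T cells labelled wildtype. The targeted gene encodes a nuclear matrix protein that binds RNA. Each group held 2 RNA sequencing libraries of total RNA from cells grown in serum-containing medium with antibiotics. The labels do not say whether the knockout was 1 clone or a pool, or whether replicates were cultured separately, so errors and p-values cover only how far these 4 libraries vary, and that variation may be technical. Total counts per library ranged from 15008554 to 17477643. The row of the targeted gene went against the label. MATR3 (ENSG00000015479) had 42 and 61 reads in the libraries labelled knockout, against 19 and 9 reads in wild-type libraries, and a second, overlapping MATR3 row had at most 5 reads in any library, so the table does not check the knockout. The groups below are called labelled-KO and wild-type, and every direction is that of the labelled-KO libraries. The cells were checked against markers of their type. All 12 T cell markers had reads in both groups and 11 were called lower, with summed levels of 1441 and 1404 depth-scaled counts (CPM) in labelled-KO libraries, against 3559 and 3309 CPM in wild-type libraries. The 14 myeloid markers summed to 5792 and 5680.5 CPM in labelled-KO libraries, against 38.6 and 35.1 CPM in wild-type libraries. ELANE and CSF3R had 0 reads in wild-type libraries, and all 13 tested myeloid markers were called higher. A marker without wild-type reads can be tested only through the labelled-KO libraries and can only be higher. Over all genes tested 33.7% were called higher and 32.3% lower. The epithelial markers summed to 122 and 123 CPM in labelled-KO libraries, against 13.0 and 10.9 CPM in wild-type libraries. Both tested were called higher, whereas CDH1, EPCAM and KRT19 had 0 reads in labelled-KO libraries. Of 3 tested B cell markers 2 were called higher and 1 lower, and the 1 tested erythroid or megakaryocyte marker was not called. The T cell, myeloid and epithelial markers moved in the same libraries as the block, and their part in the values below was not tested. In bulk RNA, a different share of cells of a type and a different amount of RNA per cell cannot be told apart.

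The proximal region of 1q is known for large segmental duplications, and many of its genes have near-identical copies. Unequal exchange between those copies produces recurrent deletions and duplications in people. One interval, which holds RBM8A, is deleted in the syndrome of thrombocytopenia with absent radius, and another, which holds CHD1L and BCL9, is lost or gained in some neurodevelopmental conditions. Extra copies of 1q are common in several cancers. Further along the arm lie single-copy genes of very different functions, among them the chromatin regulator SETDB1, the transcription factor partner ARNT and the splicing factor SF3B4. The genes of the block are not known as a family or a pathway. What they share is their place.

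The members together took more than 0.6% of the reads of both labelled-KO libraries and less than 0.4% of those of both wild-type libraries. Their summed level was 7084 and 7139 CPM in labelled-KO libraries, against 3481 and 3368 CPM in wild-type libraries, a ratio of 2.08. As a share of all reads this was 0.692% and 0.705% in labelled-KO libraries, and 0.347% and 0.348% in wild-type libraries. The difference between the groups was many times larger than that between the replicates of either group. Of the 69 members, 67 passed the filter on low counts, and the untested PDZK1 and NOTCH2NLA had 35 and 33 reads in all. No member had 0 reads in both wild-type libraries. By edgeR's quasi-likelihood test with an adjusted p under 0.05 over all genes tested, 47 members were higher, 9 were lower and 11 were not called. Of all 15294 genes tested, 66.0% were called in either direction, 33.7% higher and 32.3% lower. Called higher by at least 2-fold were 32 members, against 15.6% of all genes tested, and called higher by at least 4-fold were 15 members, against 6.93%. Called lower by at least 2-fold were 4 members, against 10.7%. Since the block was selected on this contrast, nothing is read from these counts. The median log2 fold change of the tested members was 0.91, with quartiles of 0.12 and 1.90, beside 0.02 with quartiles of -0.53 and 0.64 over all genes tested.

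**Figure D1:**
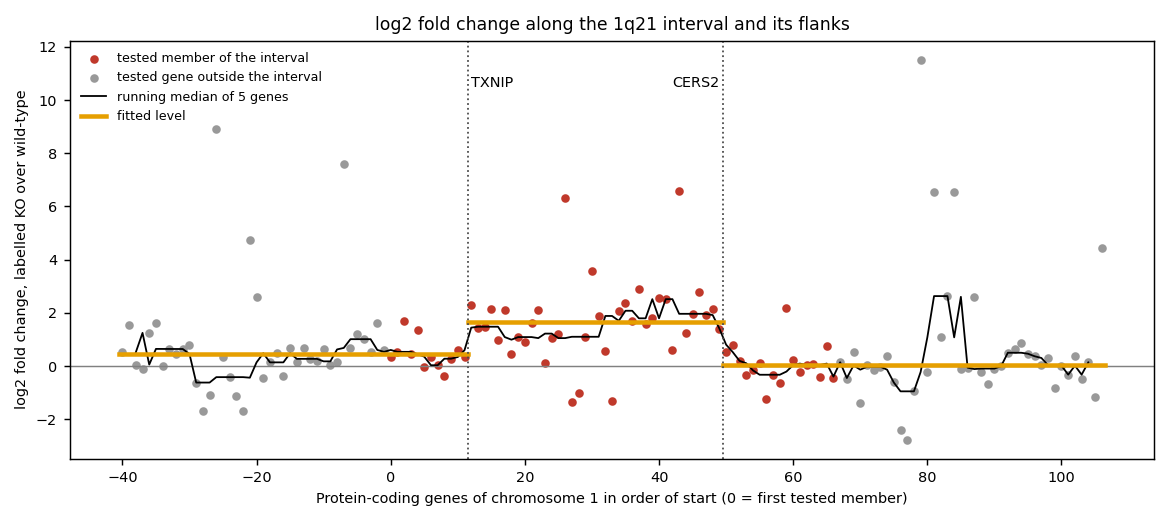
Each point is 1 tested protein-coding gene of chromosome 1, in order of start, with its log2 fold change (labelled KO over wild-type) on the y axis; red points are members, grey points the 40 genes on either side, some of which have almost no wild-type reads, so that their fitted values depend on the prior count. The orange lines are the medians of the 3 fitted levels (0.45, 1.66 and 0.03), the black line is the running median of 5 genes, and the dotted lines bound the stretch from TXNIP to CERS2, where most red points lie above 1.

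The higher expression was unevenly placed along the interval. A fit of 3 levels to the log2 fold changes of 147 tested genes, the members and 40 genes on either side, placed the middle level from TXNIP (start 145992435) to CERS2 (end 150975004), a core of 38 tested genes with a median of 1.66. The 52 genes before it, most of them across the centromere on the short arm, had a median of 0.45. The 57 genes after it had one of 0.03. No build is stated for these coordinates in the sources used here. The edges fell inside the interval, so that 13 members lie proximal of the core, 39 in it and 17 distal of it. The plot of log2 fold changes in gene order shows the running median of 5 genes above 1 at 37 of the 38 core genes and at 11 of the genes outside the core. The edges were placed on these same log2 fold changes, so higher counts and sums in the core follow from the fit. Nothing is read from the contrast between the stretches. In the core 34 members were called higher, 3 lower and 1 was not called. In the proximal stretch 7 were higher, 1 lower and 4 not called, and in the distal stretch 6 were higher, 5 lower and 6 not called. The summed level of the core members was 5572 and 5620 CPM in labelled-KO libraries, against 2022 and 1983 CPM in wild-type libraries, a ratio of 2.79. The proximal members summed to 511 and 509 CPM in labelled-KO libraries, against 411 and 402 CPM in wild-type libraries, and the distal members to 1001 and 1010 CPM in labelled-KO libraries, against 1047 and 984 CPM in wild-type libraries. The groups overlapped only in the distal sum.

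**Figure D2:**
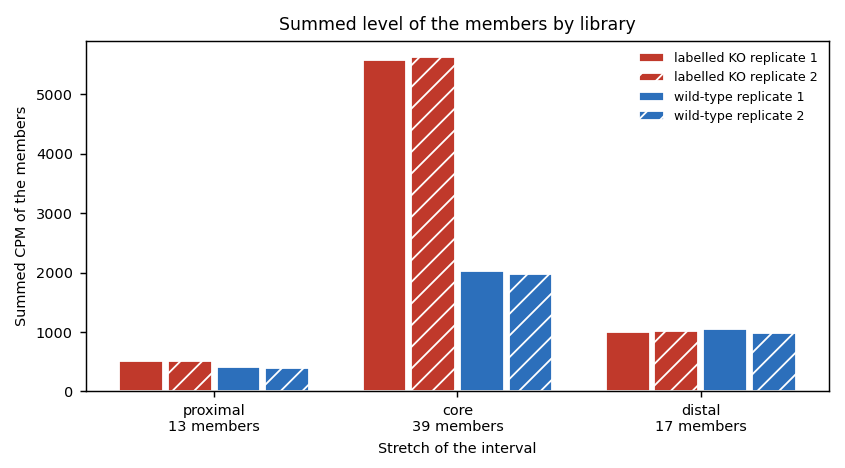
Bars give the summed CPM of the members (y axis, from 0) in each library for the proximal, core and distal stretches of the interval (x axis), red for labelled KO and blue for wild-type, with hatching for replicate 2. The core bars reach 5572 and 5620 CPM in labelled-KO libraries, against 2022 and 1983 CPM in wild-type libraries, the proximal bars 511 and 509 CPM, against 411 and 402 CPM, and the distal bars overlap between the groups.

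The distal edge lay between CERS2 and ANXA9. SETDB1, which methylates histone H3 and silences retroelements, stood at 136 and 142 CPM in labelled-KO libraries, against 31.7 and 31.3 CPM in wild-type libraries (log2 fold change 2.14, SE 0.08). CERS2, the ceramide synthase of very long acyl chains, stood at 511 and 502 CPM in labelled-KO libraries, against 194 and 187 CPM in wild-type libraries (1.41, SE 0.07). SETDB1 and CERS2 run towards each other and share 4162 bases at their ends, and without a known strand setting reads there cannot be assigned to 1 of them. The next gene, ANXA9, an annexin, begins 7012 bases beyond CERS2 and had 6.07 and 7.55 CPM in labelled-KO libraries, against 4.82 and 4.65 CPM in wild-type libraries (0.52, SE 0.22). MINDY1, a deubiquitinase, followed at 44.1 and 44.2 CPM in labelled-KO libraries, against 25.3 and 25.2 CPM in wild-type libraries (0.81, SE 0.11). PRUNE1, an exopolyphosphatase, stood at 80.1 and 79.6 CPM in labelled-KO libraries, against 71.2 and 68.0 CPM in wild-type libraries (0.20, SE 0.08). Over these 5 neighbours the log2 fold change was lower at each step from SETDB1 to ANXA9 and was 0.81 at MINDY1 and 0.20 at PRUNE1. From BNIPL to PI4KB, the last member, the log2 fold changes lay between -1.23 at MLLT11 and 0.74 at ZNF687, with the exception of TNFAIP8L2. The 6 tested genes beyond the interval went both ways, with RFX5, POGZ and TUFT1 above 0 (0.14, 0.54 and 0.03) and PSMB4, CGN and SNX27 below it (-0.48, -1.40 and -0.13).

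The proximal edge lay between POLR3GL and TXNIP. POLR3GL, a subunit of RNA polymerase III, stood at 13.4 and 15.9 CPM in labelled-KO libraries, against 10.8 and 12.4 CPM in wild-type libraries (log2 fold change 0.34, SE 0.17). TXNIP, an arrestin-like inhibitor of glucose uptake that also binds thioredoxin, starts 13586 bases further on and stood at 568 and 565 CPM in labelled-KO libraries, against 116 and 115 CPM in wild-type libraries (2.29, SE 0.07). The gap between the groups at TXNIP was far larger than that between replicates. After TXNIP come genes with near-identical copies, NBPF10, NOTCH2NLA and NBPF12, before the next single-copy genes, PRKAB2, FMO5 and CHD1L. With the families of near-identical copies left out of the fit, the first core gene became MTMR11 (start 149928651) and the last stayed CERS2, so the place of the proximal edge depended on those families. With least squares in place of absolute deviations the fit left the block, and its middle level covered 6 genes from THEM4 to S100A6 beyond the distal end. Several genes before the interval were also higher. The 40 tested genes before the first member had a median log2 fold change of 0.50, and 22 were called higher and 7 lower. Most of them, from RSBN1 (start 113761832) to SRGAP2C (start 121184810), lie across the centromere on the short arm. The next gene, FAM72C, starts at 143955364. The nearest of the 40 genes, FAM72B, SRGAP2C, FAM72C, NBPF15, SRGAP2B and FAM72D, are all members of duplicated families, with log2 fold changes between 0.51 and 1.64.

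**Figure D3:**
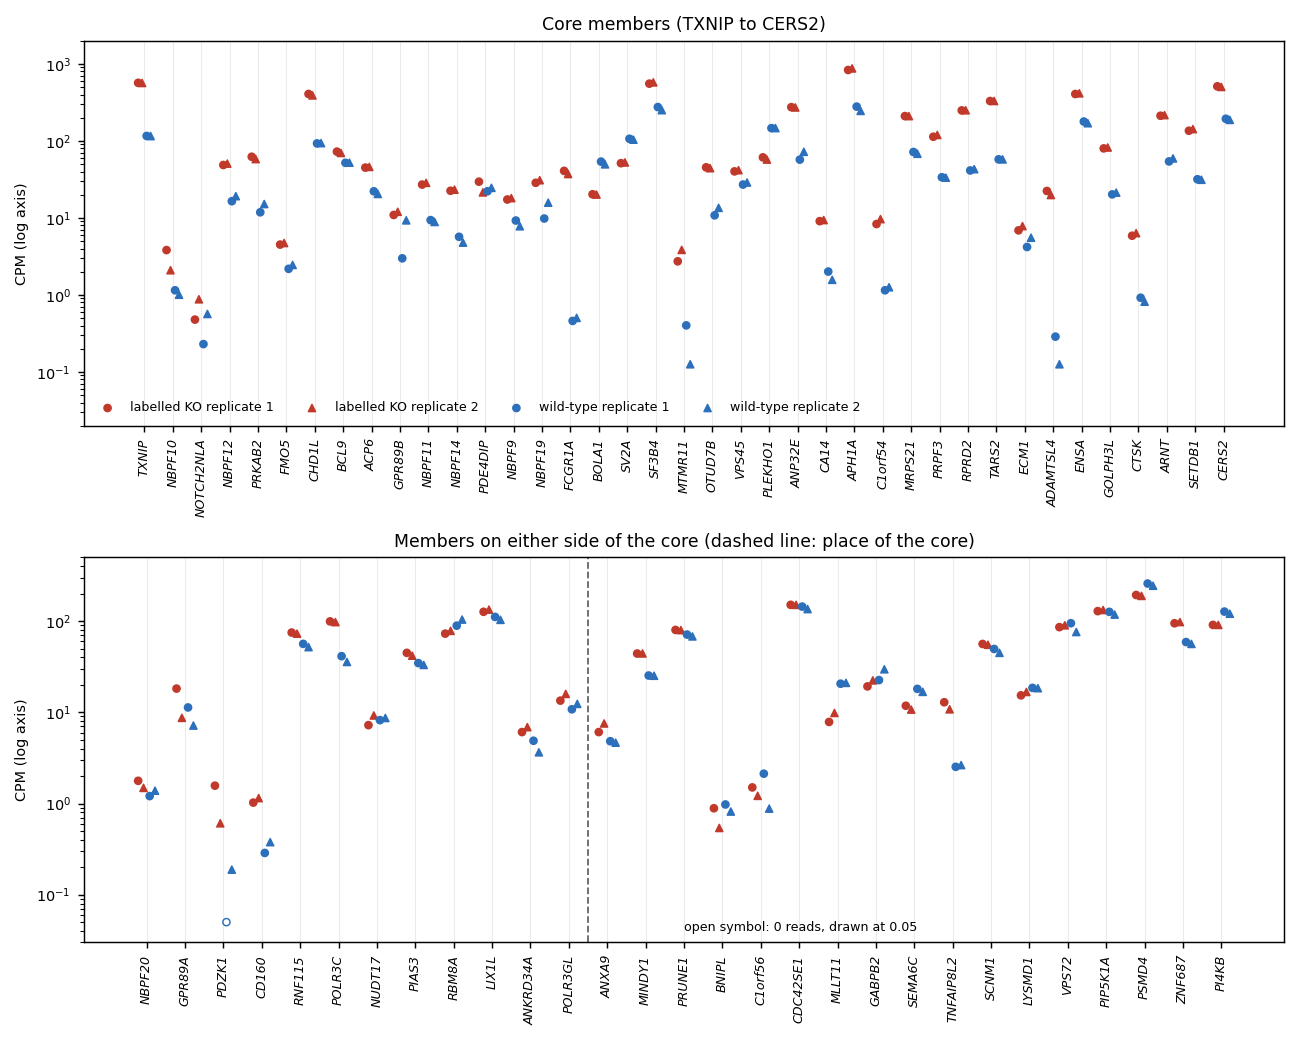
CPM of the members in each library on a log axis, with members in order of start on the x axis; red symbols are labelled KO, blue symbols wild-type, circles replicate 1 and triangles replicate 2, and 1 proximal member is not drawn. In the upper panel the red pairs lie above the blue pairs except at BOLA1, SV2A and PLEKHO1 (below) and at PDE4DIP and NOTCH2NLA (overlapping); in the lower panel the pairs lie close together for most members, with POLR3C, CD160, PDZK1, MLLT11 and TNFAIP8L2 apart; the open symbol marks 0 reads.

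Both labelled-KO libraries stood above both wild-type libraries for 51 of the 69 members and below them for 10, and the groups overlapped for 8. Over all 17626 rows with at least 15 reads, 40.2% stood above and 37.7% below. Groups that stand apart are therefore common in these libraries, and for single members this is given as a description only. The same holds for gaps wider than those between replicates, whose variation may be technical. Within the core 34 of 39 members stood above, 3 below, and 2 overlapped.

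Among the chromatin and transcription genes of the core, SETDB1, CHD1L, ANP32E, RPRD2 and ARNT were each at least 3.78-fold higher by the ratio of mean CPM. CHD1L, a remodeller that is switched on by poly(ADP-ribose), stood at 407 and 389.9 CPM in labelled-KO libraries, against 92.8 and 93.6 CPM in wild-type libraries (log2 fold change 2.10, SE 0.07). ANP32E, a chaperone that removes the histone variant H2A.Z, stood at 274 and 272 CPM in labelled-KO libraries, against 57.1 and 72.2 CPM in wild-type libraries (2.08, SE 0.08). The groups did not overlap for any of these genes. Over all rows with at least 15 reads, 40.2% stood above and 37.7% below, so nothing is read from this. RPRD2, which binds the tail of RNA polymerase II, stood at 249 and 249.7 CPM in labelled-KO libraries, against 41.3 and 43.0 CPM in wild-type libraries (2.56, SE 0.08). ARNT, the partner of the hypoxia-inducible factors and of the aryl hydrocarbon receptor, stood at 212 and 216 CPM in labelled-KO libraries, against 54.1 and 59.3 CPM in wild-type libraries (1.92, SE 0.08). BCL9, a coactivator of beta-catenin that lies between CHD1L and ACP6, differed less. BCL9 stood at 72.6 and 69.7 CPM in labelled-KO libraries, against 52.0 and 52.1 CPM in wild-type libraries (0.45, SE 0.09). Of the 14 members in the list of chromatin and transcription genes, 10 were called higher, 2 lower and 2 were not called. Over all genes tested 33.7% were called higher and 32.3% lower, and nothing is read from the difference. This list, too, was drawn up with earlier results of the same libraries known. Both of those called lower, MLLT11 and GABPB2, lie distal of the core, which was drawn from these values. So does 1 of those not called, VPS72, a subunit of complexes that deposit H2A.Z.

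Per kilobase of gene length SF3B4 had the highest level of all members in both groups, at 252 CPM per kilobase in labelled-KO libraries, against 117 CPM per kilobase in wild-type libraries. SF3B4, a subunit of the U2 snRNP that recognises the branch point, stood at 554 and 576 CPM in labelled-KO libraries, against 275 and 251 CPM in wild-type libraries (log2 fold change 1.10, SE 0.07). PRPF3, a protein of the U4/U6 snRNP, stood at 113 and 119 CPM in labelled-KO libraries, against 33.7 and 33.3 CPM in wild-type libraries (1.797, SE 0.09). Both splicing genes of the core, which was drawn from these values, were higher. The other splicing members lie on either side of it and differed by less and in opposite directions. RBM8A, the Y14 component of the exon junction complex, stood at 72.9 and 78.3 CPM in labelled-KO libraries, against 89.2 and 104 CPM in wild-type libraries (-0.35, SE 0.08). SCNM1, a component of the minor spliceosome, stood at 56.2 and 55.1 CPM in labelled-KO libraries, against 49.5 and 44.9 CPM in wild-type libraries (0.24, SE 0.09). TARS2, the mitochondrial threonyl-tRNA synthetase, stood at 329 and 329.9 CPM in labelled-KO libraries, against 57.6 and 57.5 CPM in wild-type libraries (2.52, SE 0.08). MRPS21, a protein of the small mitochondrial ribosomal subunit, stood at 210.1 and 209.9 CPM in labelled-KO libraries, against 71.8 and 68.1 CPM in wild-type libraries (1.59, SE 0.08). In both genes the groups stood far further apart than the replicates. ACP6, a mitochondrial lysophosphatidic acid phosphatase, was higher by a log2 fold change of 1.09 (SE 0.12).

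Several genes of membrane traffic, lipid metabolism and signalling in the core were higher, whereas SV2A and PLEKHO1, of the same lists and also in the core, were lower. APH1A, a subunit of gamma-secretase, stood at 833 and 874 CPM in labelled-KO libraries, against 279 and 245 CPM in wild-type libraries (log2 fold change 1.70, SE 0.07). ENSA, an inhibitor of the phosphatase PP2A in mitosis, stood at 407 and 415 CPM in labelled-KO libraries, against 178 and 169.8 CPM in wild-type libraries (1.24, SE 0.07). GOLPH3L, a phosphoinositide-binding protein of the Golgi, stood at 80.0 and 82.1 CPM in labelled-KO libraries, against 20.2 and 21.29 CPM in wild-type libraries (1.97, SE 0.10). All of these were apart by far more than their replicates. PRKAB2, a regulatory subunit of the energy sensor AMPK, stood at 62.3 and 58.1 CPM in labelled-KO libraries, against 11.8 and 15.1 CPM in wild-type libraries (2.16, SE 0.12). OTUD7B, a deubiquitinase of the NF-kB pathway, stood at 45.4 and 44.2 CPM in labelled-KO libraries, against 10.8 and 13.5 CPM in wild-type libraries (1.89, SE 0.13). VPS45, which governs fusion of endosomal vesicles, differed less, at 40.2 and 41.7 CPM in labelled-KO libraries, against 27.1 and 28.8 CPM in wild-type libraries (0.55, SE 0.11). The phosphoinositide kinases lie beyond the distal edge. PIP5K1A was at 0.10 (SE 0.07), and PI4KB stood at 90.9 and 90.9 CPM in labelled-KO libraries, against 127 and 121 CPM in wild-type libraries (-0.45, SE 0.08). PSMD4, the ubiquitin receptor of the proteasome, also beyond that edge, stood at 194 and 189 CPM in labelled-KO libraries, against 258 and 244 CPM in wild-type libraries (-0.39, SE 0.07).

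The highest ratios of the block belonged to genes with few wild-type reads. ADAMTSL4, a secreted glycoprotein of the fibrils that hold the lens, stood at 22.4 and 19.8 CPM in labelled-KO libraries, against 0.287 and 0.126 CPM in wild-type libraries (log2 fold change 6.60, SE 0.31). The wild-type values rest on 5 and 2 reads, so the SE is likely too small. Its log2 fold change was 7.32 without wild-type replicate 1 and 6.15 without wild-type replicate 2. FCGR1A, the high-affinity IgG receptor CD64 of monocytes and macrophages, stood at 40.8 and 37.2 CPM in labelled-KO libraries, against 0.459 and 0.502 CPM in wild-type libraries (6.32, SE 0.24). FCGR1B, a near-identical copy before the interval, had 88 and 126 reads in labelled-KO libraries, against 1 and 0 reads in wild-type libraries, so the split of reads between the copies is uncertain. FCGR1A also shares 9830 bases with HIST2H2BF on the opposite strand, and without a known strand setting reads there may belong to either row. MTMR11, a myotubularin-related protein, stood at 2.73 and 3.84 CPM in labelled-KO libraries, against 0.402 and 0.126 CPM in wild-type libraries (3.57, SE 0.50). Its log2 fold change lay between 2.99 and 4.64 when either wild-type library was left out. CTSK, the cathepsin of bone-resorbing osteoclasts, stood at 5.87 and 6.34 CPM in labelled-KO libraries, against 0.918 and 0.817 CPM in wild-type libraries (2.80, SE 0.32). C1orf54 (2.90, SE 0.27) and CA14, a carbonic anhydrase (2.35, SE 0.25), were of similar size. C1orf54 shares 1381 bases with APH1A on the opposite strand. Across the 67 tested members Spearman's rho between the log2 fold change and the wild-type CPM was -0.31, and between the log2 fold change and gene length 0.02; the first pair of quantities shares the wild-type counts.

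Against this background 3 core members were called lower, and they are the exceptions. BOLA1, a mitochondrial protein of iron-sulfur cluster assembly, stood at 20.3 and 20.1 CPM in labelled-KO libraries, against 53.8 and 49.6 CPM in wild-type libraries (log2 fold change -1.36, SE 0.11). SV2A, a glycoprotein of synaptic vesicles that lies next to it, stood at 51.4 and 52.5 CPM in labelled-KO libraries, against 107 and 104 CPM in wild-type libraries (-1.02, SE 0.08). PLEKHO1, a pleckstrin homology protein that binds casein kinase, stood at 61.1 and 57.2 CPM in labelled-KO libraries, against 147 and 147 CPM in wild-type libraries (-1.31, SE 0.08). None of them overlaps another row with at least 15 reads, and the groups were apart in each. Between SV2A and PLEKHO1 lie 4 members called higher, SF3B4 to VPS45, so the exceptions were interleaved with higher genes. From ANP32E on, 19 tested members in a row were called higher, up to PRUNE1 beyond the edge, and from TXNIP to NBPF14 there were 11 tested members in a row, with the untested NOTCH2NLA among them. Single libraries decided some of these calls: those of PRUNE1, ANXA9, ECM1, GPR89B and NBPF10 were lost when 1 library was left out. The only tested core member not called was PDE4DIP, an anchor of phosphodiesterase at the centrosome and Golgi, with 29.5 and 21.4 CPM in labelled-KO libraries, against 22.2 and 24.6 CPM in wild-type libraries. It belongs to a family of near-identical copies.

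Outside the core, 3 tested members were higher by at least 2-fold. POLR3C, another subunit of RNA polymerase III, stood at 99.3 and 97.6 CPM in labelled-KO libraries, against 41.3 and 35.7 CPM in wild-type libraries (log2 fold change 1.35, SE 0.09). It starts 11 bases from RNF115, an E3 ubiquitin ligase on the other strand, which stood at 74.97 and 72.9 CPM in labelled-KO libraries, against 56.3 and 51.9 CPM in wild-type libraries (0.45, SE 0.09). The neighbours with almost a common start thus differed by unequal amounts. CD160, a receptor of cytotoxic lymphocytes, rested on 15 and 17 reads in labelled-KO libraries, against 5 and 6 reads in wild-type libraries (1.69, SE 0.59). TNFAIP8L2, a negative regulator of immune signalling, stood at 12.9 and 10.8 CPM in labelled-KO libraries, against 2.53 and 2.64 CPM in wild-type libraries (2.19, SE 0.22). It shares 3086 bases with SCNM1 on the same strand, so reads there may belong to either row. MLLT11, a gene found fused to MLL in leukaemia, was the distal member of lowest log2 fold change, with 7.85 and 9.84 CPM in labelled-KO libraries, against 20.6 and 21.04 CPM in wild-type libraries (-1.23, SE 0.17). It lies within 10740 bases shared with CDC42SE1 on the opposite strand, which was at 151 and 151 CPM in labelled-KO libraries, against 144 and 136 CPM in wild-type libraries (0.11, SE 0.07).

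The other tested members on either side of the core differed by less than 2-fold between the groups. The untested PDZK1, a scaffold protein of membrane transporters, had 23 and 9 reads in labelled-KO libraries, against 0 and 3 reads in wild-type libraries, and the groups were apart. In the proximal stretch NBPF20 had 26 and 22 reads in labelled-KO libraries, against 21 and 22 reads in wild-type libraries. NUDT17, a nudix hydrolase, stood at 7.23 and 9.24 CPM in labelled-KO libraries, against 8.21 and 8.67 CPM in wild-type libraries (log2 fold change -0.03). Neither was called, and the NUDT17 groups overlapped. PIAS3, an inhibitor of STAT3 signalling, LIX1L and ANKRD34A were called higher, at 0.35, 0.28 and 0.60, and each lost its call when 1 library was left out. In the distal stretch the members not called were BNIPL (-0.33), C1orf56 (-0.16), CDC42SE1, LYSMD1 (-0.20), VPS72 and PIP5K1A. VPS72 stood at 86.0 and 90.01 CPM in labelled-KO libraries, against 94.9 and 76.0 CPM in wild-type libraries, so the groups overlapped. SEMA6C, a transmembrane semaphorin, stood at 11.8 and 10.7 CPM in labelled-KO libraries, against 18.1 and 16.8 CPM in wild-type libraries (-0.63, SE 0.16). ZNF687, a zinc finger protein, stood at 94.8 and 97.7 CPM in labelled-KO libraries, against 59.0 and 56.3 CPM in wild-type libraries (0.74, SE 0.08). The groups were apart in SEMA6C and ZNF687, in opposite directions. In the core the smallest differences among members called higher, beside BCL9 and VPS45, were those of ECM1, an extracellular matrix protein, which stood at 6.89 and 7.82 CPM in labelled-KO libraries, against 4.19 and 5.53 CPM in wild-type libraries (0.60, SE 0.22).

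Other pairs of members with starts within 1000 bases on opposite strands also differed by unequal amounts. FMO5, a flavin monooxygenase, was at a log2 fold change of 0.99 (SE 0.28) and its partner CHD1L at 2.10, with starts 409 bases apart. MINDY1 and PRUNE1, with starts 45 bases apart, were at 0.81 and 0.20. ANKRD34A and POLR3GL, at 120 bases, were at 0.60 and 0.34, and CDC42SE1 and GABPB2, at 253 bases, at 0.11 and -0.32. Over all 66 pairs of tested members next to each other in order of start, the median absolute difference in log2 fold change was 0.80, and over all 2211 pairs it was 1.20. Within the core the same medians were 0.88 over 37 adjacent pairs and 1.04 over all 703 pairs. The core was drawn from these same values. In it, 16 of 19 tested genes on the plus strand (median 1.59) were called higher, and 18 of 19 on the minus strand (median 1.70). The order of the members by CPM per kilobase was largely kept between the groups, with a Spearman's rho of 0.87 over the 69 members, which share the gene lengths. TARS2 ranked 7 in labelled-KO libraries and 22 in wild-type libraries, and BOLA1 ranked 26 in labelled-KO libraries and 6 in wild-type libraries.

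The core holds 10 members of families with near-identical copies, whose reads the counting may have split between copies, so each value is uncertain. The NBPF genes, which encode repeats of the Olduvai domain, were called higher at all 6 core members, NBPF12, NBPF11, NBPF14, NBPF9, NBPF19 and NBPF10. NBPF14 stood at 22.5 and 23.3 CPM in labelled-KO libraries, against 5.68 and 4.77 CPM in wild-type libraries (log2 fold change 2.13, SE 0.18). NBPF12 stood at 48.6 and 50.7 CPM in labelled-KO libraries, against 16.5 and 19.2 CPM in wild-type libraries (1.48, SE 0.12). NBPF20, in the proximal stretch, was at 0.33 (SE 0.42). Outside the interval, on the short arm, NBPF1 and NBPF26 were at 0.13 and 0.16 and NBPF3 was at 2.01. GPR89A and GPR89B, near-identical genes for a Golgi anion channel, had the widest replicate differences among members with at least 20 reads in each library of a group, GPR89A in labelled-KO libraries and GPR89B in wild-type libraries. GPR89A had 18.2 and 8.70 CPM in labelled-KO libraries, against 11.3 and 7.16 CPM in wild-type libraries, with overlapping groups, and its log2 fold change was -0.091 without labelled-KO replicate 1. GPR89B had 160 and 178 reads in labelled-KO libraries, against 52 and 148 reads in wild-type libraries, and its log2 fold change of 0.91 was 0.32 without wild-type replicate 1 and 1.92 without wild-type replicate 2. The other 29 members of the same core had 26 called higher and 3 lower, with a median of 1.89. Over all genes tested 33.7% were called higher and 32.3% lower. That core was fitted on these same values with the copy families included, so nothing is read from these counts. With the families left out of the fit, the core began at MTMR11 and held 20 genes.

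The remaining gene groups are given by count, beside 33.7% called higher and 32.3% called lower over all genes tested, and nothing is read from the difference. Of the 5 tested members of translation and mitochondria 3 were called higher and 1 lower, of the 4 in the ubiquitin group 3 higher and 1 lower, and of the 7 tested lipid and phosphoinositide enzymes 5 higher and 1 lower. Of the 8 vesicle genes 5 were called higher and 2 lower, and of the 9 signalling genes 5 higher and 2 lower. Of the 6 matrix and protease genes 5 were called higher, and all 3 immune surface genes, of which CD160 lost its call when any of 3 libraries was left out. The 11 tested members of the interval deleted in thrombocytopenia with absent radius had a median log2 fold change of 0.35, with 7 called higher and 1, RBM8A, lower. The 6 tested members of the neighbouring recurrent interval, PRKAB2 to GPR89B, had a median of 1.04 and all were called higher. The median over all genes tested was 0.02. These lists were drawn up with earlier results of the same libraries known.

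No row of another biotype is a member, but the same 4 libraries were compared for them. Of 35 such rows in the interval with at least 15 reads, 27 were tested, 21 were called higher, none was called lower and 6 were not called, with a median log2 fold change of 2.67. Over all genes tested 33.7% were called higher and 32.3% lower, with a median of 0.02, and nothing is read from the difference. The pseudogenes HIST2H2BD and HIST2H2BC are counted here, although protein-coding genes with HIST names were left out of the block. In the core 20 of 23 tested rows were called higher, with a median of 3.09 that was the same with the 2 rows without wild-type reads set at their bound. Rows with few or no wild-type reads, such as RF00561 and AC245100.5, passed the filters through the labelled-KO libraries alone. Such rows can only be higher, and they raise the count and the median. In the proximal stretch 1 of 4 was called higher. LINC01138, a long non-coding RNA, had 278 and 285 reads in labelled-KO libraries, against 24 and 30 reads in wild-type libraries (3.55, SE 0.22). LINC00624, an antisense RNA by its biotype, had 59 and 79 reads in labelled-KO libraries, against 6 and 12 reads in wild-type libraries (3.09, SE 0.39). LINC00869 had 437 and 459 reads in labelled-KO libraries, against 93 and 66 reads in wild-type libraries (2.67, SE 0.17). The groups were apart in all 3. The snoRNA row RF00561 had 24 and 17 reads in labelled-KO libraries and 0 in both wild-type libraries, at least 15.5-fold higher against a floor of 3 reads over the wild-type group. The processed pseudogene AC245100.5 had 11 and 12 reads in labelled-KO libraries and 0 in both wild-type libraries, at least 8.67-fold higher by the same floor. The antisense and overlapping rows cannot be told apart from their partners without a strand setting.

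**Figure D4:**
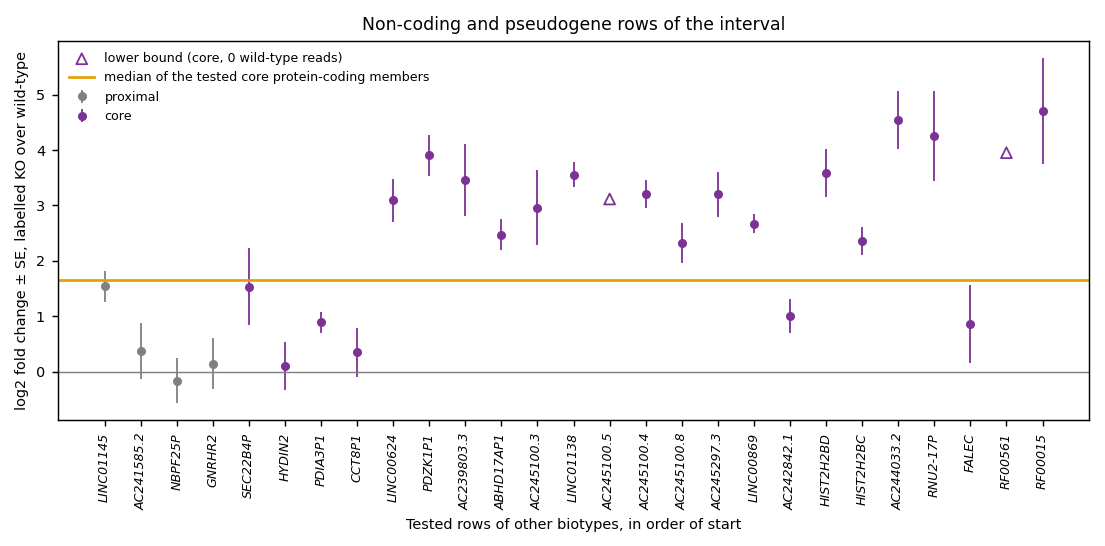
Log2 fold change (labelled KO over wild-type) with its SE for each tested non-coding or pseudogene row of the interval, in order of start; grey points are proximal, purple points lie in the core, and triangles are lower bounds for the 2 rows without wild-type reads. The orange line is the median of the tested core members, 1.66; 17 core rows lie above 2 on the log2 scale.

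Of the genes that the definition leaves out, 6 had enough reads to be tested. Of these, 5 lie in the core. MCL1, an anti-apoptotic gene, was at a log2 fold change of 3.07 and CTSS, a lysosomal cathepsin of antigen-presenting cells, at 6.28, and HIST2H2BF, HIST2H2BE and HIST2H2AC were between 3.32 and 3.64. HIST2H2BF overlaps FCGR1A on the opposite strand, so its 18 and 28 reads in labelled-KO libraries may belong to either row. ITGA10, an integrin chain, lies in the proximal stretch and was at -2.02. With these genes put back, the core still ran from TXNIP to CERS2. Of the other protein-coding rows of the interval 7 had no reads.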

How the data were processed

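RNA of 4 Jurkat libraries, 2 labelled Matr3 knock out and 2 wildtype, was sequenced by the submitters. The authors deposited 1 table of raw counts per gene. Per the submitters' processing notes, the tools included featureCounts 1.5.0-p3, HISAT2 2.0.5 and CASAVA 1.8. Neither build nor strand setting is stated in the sources used here. Mouse is the labelled organism, whereas human Ensembl identifiers stand in all 58735 rows.

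Genes were tested with edgeR 4.0.16 (R 4.3.3) by the quasi-likelihood test on the deposited counts of all genes, with TMM factors, filterByExpr (count minimum 10, total 15) and Benjamini-Hochberg adjustment over 15294 genes, with a threshold of 0.05. CPM values use the TMM-scaled totals. Each SE was worked out from the test, as the absolute log2 fold change over the square root of its F statistic. Where wild-type reads are few, as in ADAMTSL4 and FCGR1A, such an SE can understate the error of counting. Data were simulated for the same comparison with 200 of 15294 genes changed, as many up as down. There 100% of the 2-fold changes were recovered, and 5.66% of 212 calls were false. The changed genes were drawn only from those at 5 CPM or more in wild-type libraries. The recovery therefore does not cover members below that level. In the real data 66.0% of genes were called, so the simulated error rate may not carry over. The edges are those of 3 constant levels with least absolute deviation, at least 5 genes each, over the members and 40 genes on either side. Alternatives used DESeq2 1.42.0, limma 3.58.1, other filters and scalings, and single libraries left out. Putting back the left-out genes, fitting the edges with 20 genes on either side, and fitting them with a replicate block were added after seeing the data.

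All members are counted, and the values of 1 member are not reported here. Named genes are those at the edges, the exceptions, the members of largest and smallest log2 fold change and of highest CPM, and up to 4 of each gene list. The members, lists and tests were chosen with earlier results of these data known. With 2 libraries a group, the common biological coefficient of variation was 0.0667, which is the spread between these samples only. The quasi-likelihood test also used a dispersion for each gene, and single members such as GPR89A and GPR89B had wide replicate differences.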

Additional observations from a re-analysis of the deposited data

How the results depend on the processing

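The count of members called higher stayed between 39 and 47 and of those called lower between 8 and 9 when single libraries were left out, and the median log2 fold change between 0.93 and 1.02. DESeq2's Wald test called 39 higher and 8 lower, and no composition factor 42 and 8. The median was 0.67 without families of near-identical copies and 1.05 with the left-out genes put back, an alternative chosen after seeing the data. The edges moved in 2 settings. Without families of near-identical copies the first gene started at 149928651, and with least squares the middle level ran from 151873584 to 153536244; the cause was not tested. No single library moved the edges. GPR89A (0.54 with all libraries) ranged from -0.091 without labelled-KO replicate 1 to 0.98 without labelled-KO replicate 2. GPR89B was at 0.32 without wild-type replicate 1. Leaving out 1 library ended 9 calls without labelled-KO replicate 1 (PRUNE1, SCNM1, PIAS3, GABPB2, GPR89A, ANKRD34A, ANXA9, NBPF10 and CD160) and 8 without labelled-KO replicate 2 (LIX1L, PRUNE1, SCNM1, GABPB2, ECM1, ANKRD34A, ANXA9 and CD160). It ended 4 without wild-type replicate 1 (GPR89B, ECM1, ANXA9 and CD160) and 6 without wild-type replicate 2 (PRUNE1, SCNM1, GABPB2, GPR89A, ANKRD34A and ANXA9). Replicate numbers are shared by the groups but the labels do not pair them, and replicate differences correlated at r = 0.0237 over 10827 genes. With the replicate block 47 members were called higher and 9 lower, with a median of 0.99. Depth limits CD160, MTMR11, ADAMTSL4 and the untested PDZK1 and NOTCH2NLA, whose wild-type libraries held few reads.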
